A study of Mus musculus with 24 samples.

Results

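The genes described here are the 329 genes of distal chromosome 11 that lay between positions 86024185 and 121534465 (genome build mm9), an interval of 35.5 Mb at the far end of the chromosome, out of 23119 genes listed for the series. They were chosen by position, by a mean of at least 5 FPKM (fragments counted per kilobase of transcript, scaled to the mapped fragments of the library) over all 24 libraries, and by name. Of 706 genes listed in the interval, 343 reached that mean, and 14 of these were left out by name (Hox genes of the b cluster, Sox9, Axin2, Ngfr, and genes whose symbols begin like those of ribosomal and respiratory chain subunits). Rps6kb1, a kinase gene, was among the 14 because of how its symbol begins. The start of the interval was set with the difference between KO and WT neural stem cells (NSCs) in view, so values and counts from that comparison are given below as descriptions, and nothing is read from its p-values.

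Poly(A) RNA was sequenced from JB4/EI7HZ2 cells, a female mouse embryonic stem cell (mESC) line from a cross of JF1 and B6 mice, and from a SmcHD1 knockout (KO) line made from it with CRISPR–Cas9. Each genotype was sampled as mESCs kept with 2i inhibitors, LIF and the drugs G418 and Zeocin, which select for both X chromosomes, as day 7 and day 9 cells differentiated as embryoid bodies, and as NSCs grown with FGF and EGF and the same drugs, with 3 libraries each (8 groups). SmcHD1 is a chromatin protein of the structural maintenance of chromosomes type, known for its part in X inactivation. Since each genotype was 1 line, what differs by SmcHD1 and what differs by line cannot be told apart. The labels do not say whether replicates were separate cultures, but the paper's supplement describes the RNA-seq replicates as biologically independent. P-values measure the spread between these libraries within 1 line per genotype.

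Distal mouse chromosome 11 is a gene-dense stretch. It carries many genes that every cell uses, among them genes for translation factors, proteasome and splicing subunits and histones, beside developmental genes such as the Hox b cluster and genes of neurons and glia. Neighbouring genes can share chromatin domains and are copied, gained or lost together with their DNA, so RNA levels are often read in map order as well as by function. The members are therefore described here first by position and then by role.

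The first member in map order was Ints2 (positions 86024185 to 86071070), which encodes a subunit of the Integrator complex that processes small nuclear RNAs. The last were B3gntl1 and Tbcd, entries that share the locus from 121313263 to 121534465, and Tbcd encodes a chaperone of tubulin folding. The promoters of Ints2 and Tbcd are shown because they stand at the ends of the interval, and those of Eif1 and G6pc3 because these members were among the lowest in KO NSCs. Each sequence runs 5′ to 3′ from 250 bases before to 50 bases after a RefSeq gene start (table build GRCm38.p6), and was placed on mm9 by its single exact match. Capitals mark 3 motifs on either strand, namely the GC box (letters GGGCGG), the CCAAT box (letters CCAAT) and the E-box (letters CACGTG).
Ints2, chr11:86071047-86071346, minus strand: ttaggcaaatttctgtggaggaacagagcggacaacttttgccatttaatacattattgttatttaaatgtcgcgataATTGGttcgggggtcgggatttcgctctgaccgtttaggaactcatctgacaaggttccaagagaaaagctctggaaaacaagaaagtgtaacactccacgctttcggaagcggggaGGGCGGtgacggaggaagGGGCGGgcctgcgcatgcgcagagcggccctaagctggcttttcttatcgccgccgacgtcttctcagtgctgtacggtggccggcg
Eif1, chr11:100181013-100181312, plus strand: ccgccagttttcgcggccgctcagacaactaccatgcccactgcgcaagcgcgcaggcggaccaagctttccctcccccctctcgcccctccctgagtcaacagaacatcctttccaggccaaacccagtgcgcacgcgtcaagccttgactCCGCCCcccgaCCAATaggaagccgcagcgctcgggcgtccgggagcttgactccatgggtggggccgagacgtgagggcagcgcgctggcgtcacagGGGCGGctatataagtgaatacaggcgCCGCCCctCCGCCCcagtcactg
G6pc3, chr11:102050763-102051062, plus strand: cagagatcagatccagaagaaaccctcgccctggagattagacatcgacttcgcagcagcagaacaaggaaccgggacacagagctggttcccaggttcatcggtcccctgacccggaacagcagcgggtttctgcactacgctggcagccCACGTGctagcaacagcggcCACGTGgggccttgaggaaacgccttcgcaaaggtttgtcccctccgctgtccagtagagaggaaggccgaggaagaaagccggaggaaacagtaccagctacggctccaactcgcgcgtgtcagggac
Tbcd, chr11:121313055-121313354, plus strand: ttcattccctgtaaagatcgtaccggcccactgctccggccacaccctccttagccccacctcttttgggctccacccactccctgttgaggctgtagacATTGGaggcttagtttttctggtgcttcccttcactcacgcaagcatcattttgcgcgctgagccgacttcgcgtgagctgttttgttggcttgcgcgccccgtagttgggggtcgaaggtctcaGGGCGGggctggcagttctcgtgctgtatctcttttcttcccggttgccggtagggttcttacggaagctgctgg
The Eif1 promoter held 4 GC boxes and 1 CCAAT box, that of Ints2 2 and 1, and that of Tbcd 1 and 1. The G6pc3 promoter held neither and had 2 E-boxes. Over all 27025 promoters of the table, 35.9% held a GC box, 37.9% a CCAAT box and 7.24% an E-box. Over the 6429 matched promoters of genes on the other autosomes with a mean of at least 5 FPKM, the shares were 69.9%, 39.6% and 10.8%. Of the 329 members, 262 (79.6%) had an entry in the table, near the 80.3% of those genes on the other autosomes. No comparison of motif shares over the members is drawn. Matches are letters in these windows, not sites of binding.

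Read totals are not given in the sources used here, and FPKM values do not hold them. Within groups the lowest correlation between 2 libraries was 0.955. Smchd1 was low in every KO library, at 3.43 to 4.37 FPKM in KO NSCs against 16.1 to 21.4 in WT NSCs. Pluripotency markers (Pou5f1, Nanog, Fgf4, Zfp42) summed to at least 2159 FPKM in mESCs and to at most 1.26 in NSCs. Neural stem cell markers (Nes, Fabp7, Olig2, Vim) summed to 5204 to 6685 FPKM in WT NSCs and to 3699 to 4580 in KO NSCs. Of the 4, 1, Vim, passed the test as lower in KO NSCs. Fabp7 made up most of the sums, at 3264 to 4998 FPKM in WT and 2286 to 3089 in KO NSCs, without overlap. Olig2 (303 to 364 in WT, 351 to 369 in KO) and Nes (97.5 to 267 in WT, 109 to 140 in KO) overlapped. Neuron markers, of which Tubb3 and Stmn2 could be used, summed to 5.75 to 22.2 FPKM in WT NSCs and 7.15 to 9.72 in KO NSCs. Mesoderm markers (T, Tbx6, Meox1, Snai1) summed to 61.2 to 161 FPKM in WT and 3.64 to 5.43 in KO day 7 cells, to 17.2 to 47.7 and 6.32 to 16.1 in day 9 cells, and to 0.903 to 1.09 and 0.734 to 3.14 in NSCs. Endoderm markers (Gata4, Gata6, Sox17, Foxa2) summed to 20.1 to 51.1 FPKM in WT and 0.496 to 1.47 in KO day 7 cells and to 27.2 to 50.01 and 2.68 to 11.6 in day 9 cells. In NSCs the order was opposite, with endoderm sums of at most 0.0597 FPKM in WT and 1.59 to 4.00 in KO libraries. Foxa2 and Gata4 were listed at 0 in the 3 WT NSC libraries and above 0 in the 3 KO NSC libraries, while Sox17 and Gata6 were at 0 in the KO NSC libraries. In bulk RNA, fewer cells of a type and less RNA per cell cannot be told apart. The part of any cell type in the results below was not tested.

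In NSCs the distal chromosome 11 genes were lower in KO than in WT cells as a block. For each gene, log2(FPKM + 1) was compared with its mean over the 3 KO libraries of the same stage (for a KO library, over the other KO libraries), and the median was taken over the members. In WT NSCs this median was 0.22, 0.29 and 0.37 in replicates 1, 2 and 3, and in KO NSCs it was 0.02, 0.00 and -0.03. All 3 WT libraries lay above all 3 KO libraries. Against the WT libraries of the stage instead (for a WT library, the other WT libraries), the medians were -0.12, 0.00 and 0.12 in WT and -0.27, -0.28 and -0.31 in KO NSCs, again without overlap, but with a gap between the groups that was smaller than the spread among the WT libraries. The same medians over 448 genes of the rest of chromosome 11, with the same FPKM filter, were 0.04, -0.05 and -0.03 in WT NSCs and 0.02, 0.00 and -0.02 in KO NSCs, so these overlapped.

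**Figure D1:**
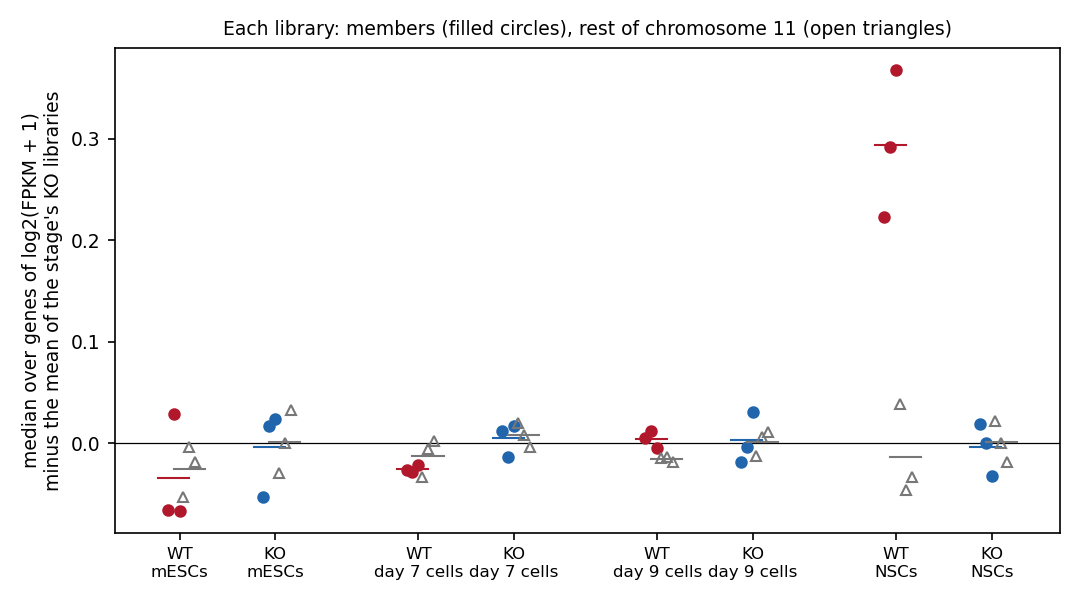
Median over genes of log2(FPKM + 1) minus the mean of the KO libraries of the same stage (for a KO library, the other KO libraries), for each of the 24 libraries, with members as filled circles (red for WT, blue for KO), the rest of chromosome 11 as open triangles, and lines at the mean of 3 libraries. The members in WT NSCs sit between 0.22 and 0.37, above every other library plotted, and the triangles stay within 0.06 of 0.

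Within the WT NSCs the shift was not equal. Less the median over 8007 genes of the other autosomes, the members stood 0.20 above the KO libraries in replicate 1, 0.32 in replicate 2 and 0.40 in replicate 3. WT replicate 1 was the lowest of the 3 WT libraries for 180 of 329 members (54.7%), against 37.6% of genes on the other autosomes. WT replicate 3 was lowest for 38 members (11.6%), against 25.7%. In KO NSCs each replicate was lowest for 30.7% to 36.5% of the members. The members took 3.12%, 3.17% and 3.49% of the FPKM sum in WT NSCs and 2.66%, 2.74% and 2.74% in KO NSCs, and 2.19% to 2.83% in the libraries of the other stages.

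The difference was small for single genes and broad over the interval. In KO NSCs 298 of the 329 members (90.6%) had a log2 fold change below 0, against 45.1% of genes on the other autosomes and 48.0% of the rest of chromosome 11. The median was -0.29, with quartiles at -0.42 and -0.15, against 0.02 on the other autosomes and 0.01 on the rest of chromosome 11. As a ratio of mean FPKM the median member in KO NSCs stood at 0.794 of its WT level. The distance between the quartiles was 0.26 both for the members and for the other autosomes, so the members formed 1 shifted distribution of ordinary width rather than a few strongly lower genes.

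**Figure D2:**
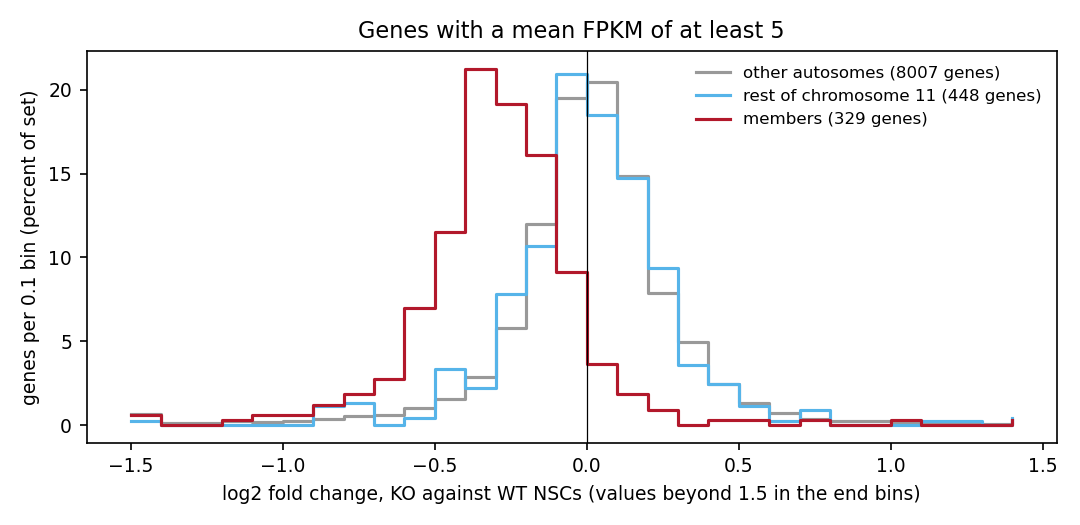
Share of genes (percent of each set) per bin of 0.1 in the log2 fold change of KO against WT NSCs, for the 329 members (red), 448 genes of the rest of chromosome 11 (blue) and 8007 genes of the other autosomes (grey), all with a mean of at least 5 FPKM. The red outline is displaced to the left with its median at -0.29, while the other outlines are centred near 0.

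In the limma fit used for the other stages, 68 members had an adjusted p under 0.05 as lower in KO NSCs and 0 as higher. Of all 12105 genes tested, 3.48% passed as lower and 2.54% as higher. Since the interval was set on this comparison, the count is a description and no support for it. It was 107 lower and 2 higher with the replicate number as a block, and 1 lower when the NSC libraries were fitted alone. Without WT replicate 1 it was 109, without WT replicate 3 it was 34 and without KO replicate 3 it was 36. The 3 WT libraries lay above all 3 KO libraries for 129 members (39.2%), against 8.54% of all tested genes. The KO libraries lay above for 0 members, against 8.16% of all tested genes.

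Within the members the median varied little with level and base composition. In 3 equal groups by mean FPKM, the members had medians of -0.28, -0.32 and -0.29 from the lowest to the highest group. In 4 groups by transcript GC content, available for 98.2% of the members, the medians were -0.27, -0.28, -0.30 and -0.30 from the lowest to the highest GC, against 0.04, 0.01, 0.00 and 0.02 on the other autosomes. Genes of the interval outside the rule differed more. The 14 genes left out by name had a median of -0.38, with 12 below 0. The 84 genes of the interval with a mean of 1 to 5 FPKM had a median of -0.08, with 51 below 0. Their median ratio of mean FPKM, which has no added 1, was 0.867, also nearer to 1 than that of the members.

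Along the chromosome the shift ran from the start of the interval to its end. In windows of 5 Mb counted from the start of Ints2, the 8 windows that hold members had medians of -0.28, -0.22, -0.29, -0.33, -0.21, -0.33, -0.30 and -0.28 in NSCs, with 86.5% to 100% of their members below 0. No window stood out, and the smallest and largest medians lay 0.12 apart. Over 138 windows of the other autosomes with at least 20 genes each, the NSC medians ran from -0.11 to 0.14. Windows of chromosome 11 before the interval ran from -0.15 (12 genes) to 0.21 (2 genes). The members' windows start where the interval was set on this comparison, and the last held 9 genes, so the contrast is a description. Medians over whole other autosomes ran from -0.02 to 0.06. In the other stages, windows elsewhere reached -0.18 in mESCs, on chromosome 8, and -0.20 in day 7 and -0.25 in day 9 cells, both on chromosome 16. Chromosome 16 as a whole had medians of -0.10, -0.13 and -0.16 in mESCs, day 7 and day 9 cells and 0.01 in NSCs.

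**Figure D3:**
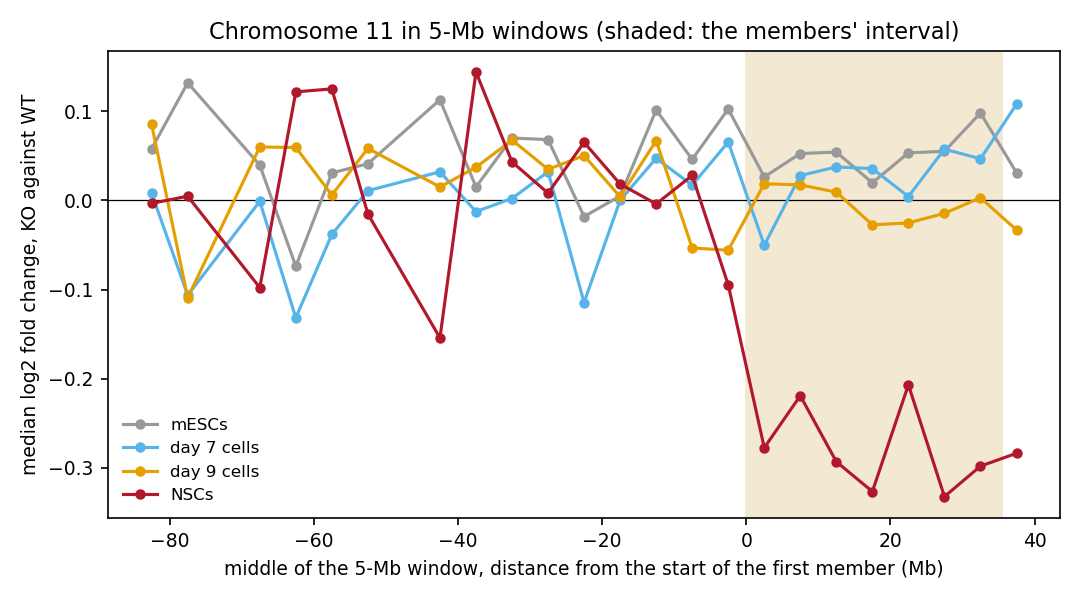
Median log2 fold change of KO against WT in 5-Mb windows along chromosome 11 by stage, plotted at the middle of each window as distance in Mb from the start of the first member; windows with fewer than 9 genes are left out and the members' interval is shaded. The NSC line lies between -0.33 and -0.21 across the shaded interval, and the lines of the other stages stay near 0 there.

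Some genes just before the first member also had negative values. The first 10 members, from Ints2 to Prr11, were all below 0, with a median of -0.28. The last 10 genes before them with the same FPKM filter, from Aatf to Bcas3 (84236358 to 85639560), had a median of -0.18 and 9 of 10 below 0. Within these 10, Mrm1 stood at -0.43, Appbp2 at -0.38 and Ggnbp2 at -0.34, with all KO libraries below all WT libraries. Znhit3 stood at -0.42, Bcas3 at -0.18, Myo19 and Ppm1d at -0.17, Aatf at -0.09 and Usp32 at -0.05. The libraries of these genes overlapped. Car4 was listed at 0 FPKM in all 6 NSC libraries and so gives no measure of a difference. The 10 genes before Aatf had a median of -0.01 with 6 below 0. Over the 24 genes of the 5-Mb window just before Ints2 the median was -0.09, with 70.8% below 0. Negative values were thus not confined to the interval at its start.

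In the other stages the medians of the members stood close to those of the other autosomes. The median log2 fold change of KO against WT was 0.05 in mESCs, 0.03 in day 7 cells and -0.00 in day 9 cells, against 0.02, 0.01 and 0.00 on the other autosomes. Below 0 were 126 members (38.3%) in mESCs, 137 (41.6%) in day 7 cells and 167 (50.8%) in day 9 cells. On the other autosomes these shares were 45.7%, 48.1% and 49.4%, and over all tested genes 49.2%, 50.1% and 49.9%. The largest shift of a single library from the KO mean of its stage was -0.07, in WT mESCs. That KO reference was added after the data were seen. Against the WT libraries of the stage the largest shift was 0.10, in WT mESC replicate 2, near the 0.12 of WT NSC replicate 3. In mESCs 16 members with KO lower and 22 with KO higher did not overlap (4.86% and 6.69%, against 5.93% and 5.07% of tested genes). These counts were 39 and 48 in day 7 cells (11.9% and 14.6%, against 12.3% and 11.6%). They were 56 and 48 in day 9 cells (17.0% and 14.6%, against 16.8% and 15.4%). The difference between the NSC and mESC effects had a median of -0.33 over the members and 0.00 over the other autosomes. It contains the NSC comparison that set the interval, so its counts are descriptions too. Past the threshold were 21 members as lower and 0 as higher, against 1.12% and 1.14% of all tested genes. With the replicate block 48 members were past it as lower.

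Sorted by role, all 9 lists had medians below 0 in NSCs, from -0.33 to -0.07. Over all 329 members 90.6% were below 0 with a median of -0.29, so list values near these describe the block and no particular role. The lists took in 171 of the members, and 158 members were in none. All 19 genes of the proteasome and ubiquitin list were below 0, with a median of -0.26. So were all 16 genes of DNA replication, repair and mitosis (median -0.29) and all 24 genes of RNA splicing and processing (median -0.29). Among 28 chromatin and transcription genes 26 were below 0 (median -0.29), among 21 mitochondrial genes outside the respiratory chain 19 (median -0.33), and among 22 signalling genes 20 (median -0.28). The medians were -0.18 for 17 genes of cytoskeleton, adhesion and transport (14 below 0) and -0.18 for 12 neural genes (10 below 0). The 16 genes of lipid, nucleotide and lysosomal metabolism had a median of -0.07 with 12 below 0, close to the median of -0.06 with 10 below 0 of the same list in day 7 cells. Differences between the lists were not tested.

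**Figure D4:**
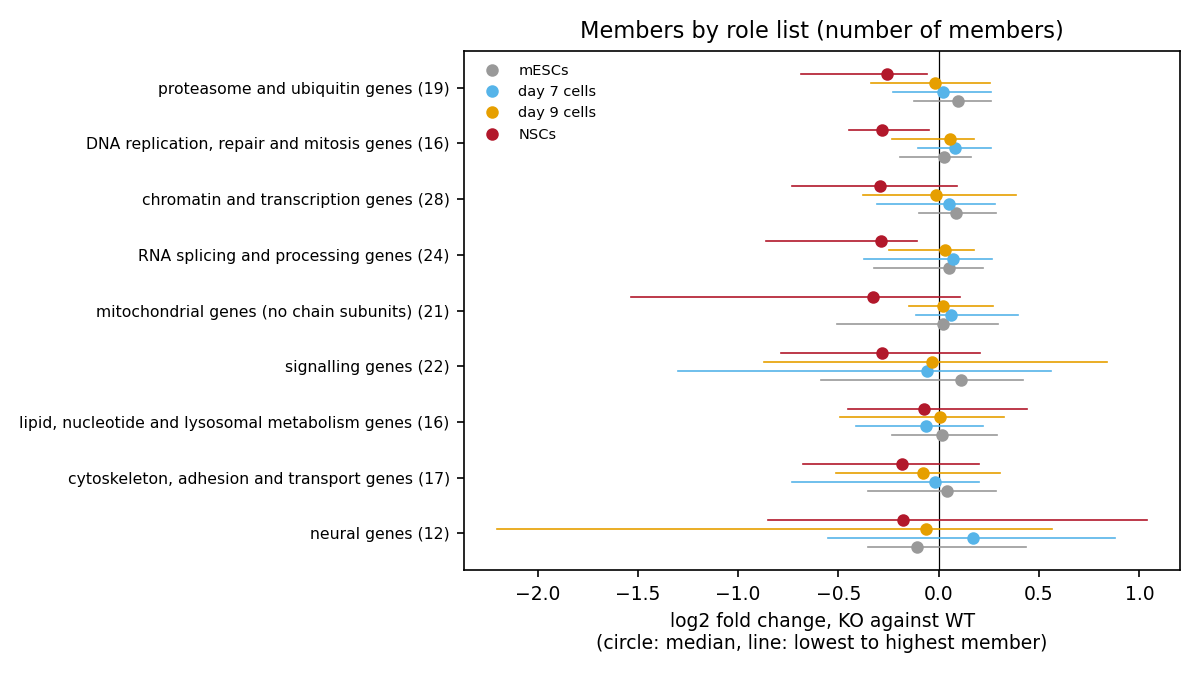
Median (circle) and range (line) of the log2 fold change of KO against WT over the members of 9 role lists in mESCs (grey), day 7 cells (light blue), day 9 cells (orange) and NSCs (red), with the number of members in parentheses. All 9 NSC medians lie below 0, from -0.33 to -0.07, while the medians of the other stages lie on both sides of 0.

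Among genes of RNA processing and translation, Eif1, the initiation factor that helps the ribosome choose the start codon, was measured at 612, 796 and 787 FPKM in WT NSCs and at 440, 419 and 348 in KO NSCs. The groups did not overlap, and the log2 fold change was -0.86 (SE 0.12). In mESCs the same gene was at 470, 564 and 422 FPKM in WT and 429, 528 and 430 in KO cells, which overlapped. Igf2bp1, an mRNA-binding protein of embryonic cells listed together with a microRNA, was nearly off in NSCs, at 3.60, 1.00 and 0.367 FPKM in WT and 0.767, 0.183 and 0.109 in KO cells, which overlapped.

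Among chromatin genes, H3f3b, which encodes a replication-independent histone variant, was at 525, 493 and 483 FPKM in WT NSCs and at 390, 307 and 296 in KO NSCs, a log2 fold change of -0.61 (SE 0.11) with no overlap. Hdac5, a class II histone deacetylase, was at 56.4, 37.5 and 37.3 FPKM in WT NSCs and at 26.3, 22.4 and 28.1 in KO NSCs, a log2 fold change of -0.73 (SE 0.13). Its WT replicate 1 stood apart from the others, and the groups did not overlap. In day 9 cells the KO libraries of Hdac5 were above the WT libraries, at 44.1, 43.0 and 48.8 against 39.8, 40.8 and 36.5 FPKM, with an adjusted p of 0.475 in limma. H3f3b and Eif1 have near-identical copies elsewhere in the genome, and how reads with several matches were shared is not given in the sources used here.

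Among genes of metabolism and mitochondria, G6pc3, the broadly expressed glucose-6-phosphatase, was at 10.6, 18.8 and 22.1 FPKM in WT NSCs and at 7.95, 7.39 and 6.14 in KO NSCs (log2 fold change -1.10, SE 0.19). The KO libraries were close together and below all WT libraries, of which replicate 1 was the lowest. Cisd3, an iron-sulfur protein of mitochondria, was at 7.39, 13.9 and 19.3 FPKM in WT and 5.04, 1.73 and 5.31 in KO NSCs (log2 fold change -1.54, SE 0.31). Pycr1, an enzyme of proline synthesis, was at 3.15, 14.2 and 12.1 FPKM in WT and 2.39, 2.55 and 2.64 in KO NSCs (log2 fold change -1.41, SE 0.34). For both, WT replicate 1 lay near the KO libraries and the other WT replicates well above. Ghdc, picked out after its values were seen, was at 6.30, 9.66 and 11.9 FPKM in WT and 3.95, 4.97 and 2.92 in KO NSCs (log2 fold change -1.04, SE 0.18), without overlap. In the lipid and lysosomal list, Gaa, the lysosomal acid alpha-glucosidase, was at 16.7, 33.6 and 36.5 FPKM in WT and 16.8, 21.9 and 21.1 in KO NSCs. Wipi1, a protein of autophagosome formation, went the other way, at 5.65, 12.8 and 11.3 FPKM in WT and 10.2, 16.9 and 13.0 in KO NSCs. Both overlapped between genotypes.

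In the ubiquitin list, Usp36, a nucleolar deubiquitinase, was at 12.9, 10.2 and 12.8 FPKM in WT and 7.47, 6.89 and 6.72 in KO NSCs (log2 fold change -0.69, SE 0.14). Aspscr1, a UBX-domain protein that tethers glucose transporter vesicles, was at 52.1, 51.2 and 50.9 FPKM in WT and 41.6, 40.8 and 30.7 in KO NSCs (log2 fold change -0.45, SE 0.11), and it had been at 78.2, 101 and 101 in WT and 102, 113 and 120 in KO mESCs. Neither gene overlapped between genotypes in NSCs, and for Aspscr1 the order was opposite in mESCs.

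Among cell division genes, Nup85, a subunit of the nuclear pore, was at 82.7, 45.5 and 70.8 FPKM in WT and 54.0, 43.9 and 43.8 in KO NSCs, and Birc5, the survivin of the chromosomal passenger complex, at 173, 103 and 124 against 113, 86.3 and 89.7. For both, WT replicate 2 lay within the KO range.

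Among signalling and cell shape genes, Erbb2, a receptor tyrosine kinase, was at 11.2, 10.1 and 10.2 FPKM in WT and 6.93, 7.14 and 6.31 in KO NSCs (log2 fold change -0.56, SE 0.11), with no overlap. Its locus overlaps 1 other entry, 1810046J19Rik. Vat1, a vesicle membrane protein, was at 63.5, 71.4 and 68.6 FPKM in WT and 39.1, 37.3 and 50.7 in KO NSCs (log2 fold change -0.68, SE 0.13), also without overlap. Rac3, a small GTPase, was at 5.64, 5.71 and 3.83 FPKM in WT and 3.11, 2.78 and 3.68 in KO NSCs. The lowest WT library of Rac3 was close to the highest KO library. In the neural list, Cnp, the cyclic nucleotide phosphodiesterase of myelin-forming cells, was at 29.8, 100 and 58.5 FPKM in WT and 30.2, 32.6 and 29.4 in KO NSCs. WT replicate 1 lay inside the KO range and WT replicate 2 more than any other library above it.

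A minority of members stood outside the block. Above 0 in NSCs were 26 members, and 4 reached 0.5, which were picked out after their values were seen. Nptx1, a neuronal pentraxin, was at 14.3, 21.0 and 77.4 FPKM in WT and 47.6, 55.8 and 82.3 in KO NSCs, and C1ql1, a secreted C1q-like protein, at 3.09, 15.7 and 22.3 against 10.2, 16.9 and 36.7. E130012A19Rik was at 13.4, 8.06 and 5.89 FPKM in WT and 15.0, 12.2 and 13.0 in KO NSCs. Snora21, a small nucleolar RNA, was at 30.9 FPKM in KO replicate 2 and at 0 in the other 5 NSC libraries. All but E130012A19Rik and Snora21 had WT replicate 1 as the lowest library, and all 4 overlapped between genotypes.

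At the ends and near the FPKM threshold the values varied. Ints2 was at 9.96, 12.5 and 12.9 FPKM in WT and 10.1, 8.93 and 9.74 in KO NSCs, with WT replicate 1 inside the KO range. Tbcd was at 29.0, 29.1 and 25.8 FPKM in WT and 20.02, 23.2 and 18.5 in KO NSCs, with no overlap, although B3gntl1 and Zfp750 share its locus. The members just above the threshold were Fbxl20, with a mean of 5.02 FPKM and an NSC log2 fold change of -0.15, and Tubg2, with 5.11 FPKM and -0.18. Just below it were Tubd1, with 4.93 FPKM and -0.07, and Ptrf, with 4.71 FPKM and -0.97. Past the last members, Metrnl, with a mean of 2.90 FPKM, was at 7.88, 5.44 and 8.96 FPKM in WT and 9.23, 8.43 and 9.32 in KO NSCs, with overlap and a log2 fold change of 0.27.

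**Figure D5:**
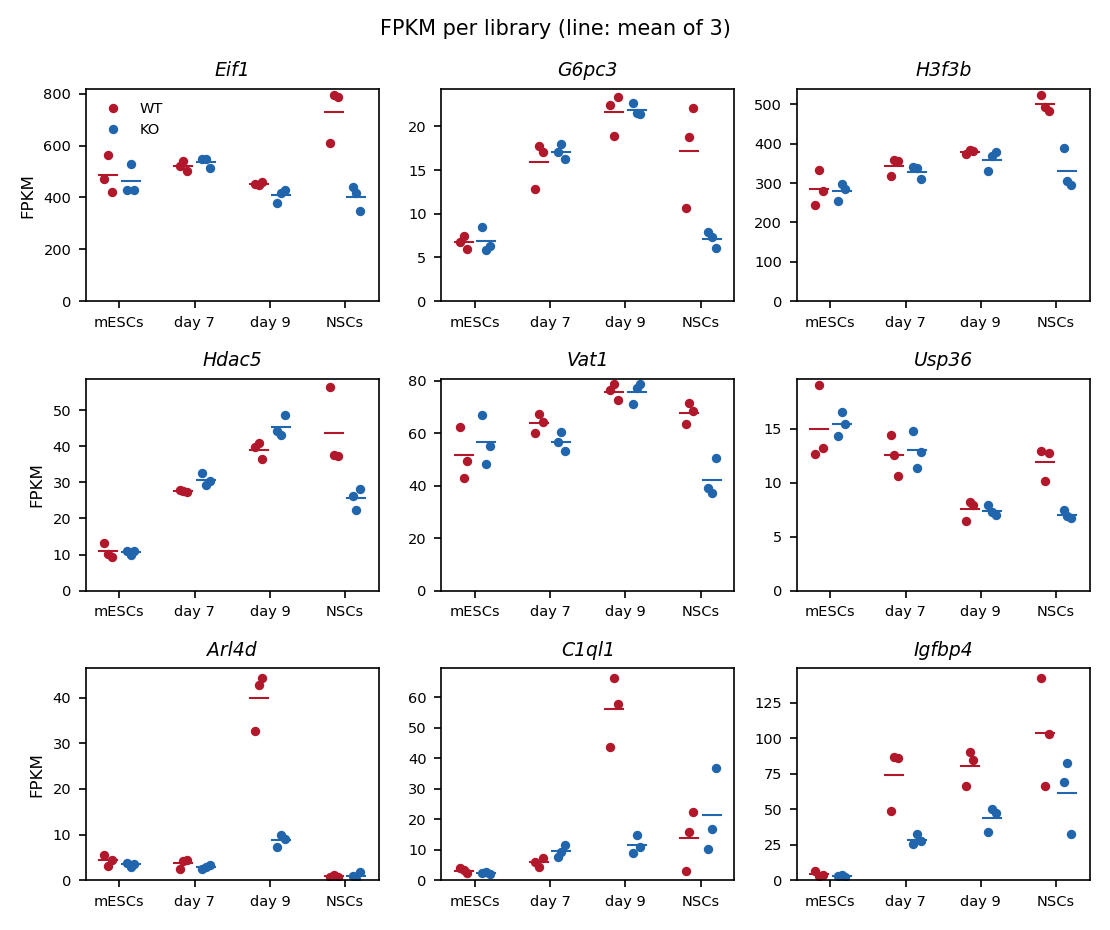
FPKM of 9 members in each library by stage, WT in red and KO in blue, with lines at the mean of 3 libraries and linear axes that start at 0. Eif1, G6pc3, H3f3b, Hdac5, Vat1 and Usp36 separate by genotype with KO lower in NSCs, Arl4d and C1ql1 in day 9 cells, and Igfbp4 in day 7 and day 9 cells.

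In mESCs, where the members were not chosen on the difference, 1 member passed the test as lower in KO and 0 as higher, against 0.413% and 0.116% of all tested genes. At an unadjusted p under 0.05 there were 27 members (8.21%), against 7.66% of all tested genes. The member was Dusp3, a dual-specificity phosphatase that acts on MAP kinases, at 2.93, 3.53 and 2.70 FPKM in WT and 2.16, 1.44 and 1.41 in KO mESCs. The groups did not overlap, and the log2 fold change on the log2(FPKM + 1) scale was -0.61 (SE 0.14, adjusted p = 0.0423 in limma). With the replicate number as a block its adjusted p was 0.0865, and the call was also lost without WT replicate 1, 2 or 3 or KO replicate 2 or 3, with adjusted p up to 0.236. Dusp3 was below WT in NSCs too, at 5.86, 7.06 and 8.32 FPKM in KO against 10.9, 10.1 and 10.2.

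In day 7 cells 2 members passed as higher and 4 as lower, against 1.18% and 2.5% of all tested genes. At an unadjusted p under 0.05 there were 35 members (10.6%), against 13.9% of all tested genes. Igfbp4, a binding protein that restrains insulin-like growth factors, was at 48.4, 87.1 and 86.3 FPKM in WT and 25.2, 32.7 and 27.9 in KO cells. The KO libraries were all lower, with a log2 fold change of -1.30 (SE 0.32, adjusted p = 0.0219 in limma), and in day 9 cells the order was the same, at 66.3, 90.1 and 84.4 against 33.6, 50.3 and 47.2 FPKM (adjusted p = 0.125). Its day 7 call was lost without WT replicate 2 or 3 or KO replicate 1 or 3 (adjusted p up to 0.124).

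The entry 2210409E12Rik was at 33.1, 19.7 and 17.1 FPKM in WT and 11.4, 10.7 and 11.9 in KO day 7 cells (log2 fold change -0.93, SE 0.18, adjusted p = 0.00348 in limma). The groups did not overlap, and the gene passed with every library left out in turn (highest adjusted p 0.0206). It was on its way down in both lines, from at least 408 FPKM in mESCs to 0 in all NSC libraries. Jup, the junction protein plakoglobin, was at 12.2, 12.4 and 11.6 FPKM in WT and 9.51, 5.84 and 5.78 in KO day 7 cells (log2 fold change -0.73, SE 0.19, adjusted p = 0.0288 in limma). Its call was lost without any WT library or KO replicate 2 or 3 (adjusted p up to 0.175).

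Cdr2l, a paralog of the cerebellar degeneration antigen gene Cdr2, was higher in KO cells at both days. It was at 12.3, 11.1 and 10.6 FPKM in WT and 18.3, 17.5 and 19.9 in KO day 7 cells (log2 fold change 0.67, SE 0.16, adjusted p = 0.0153 in limma), and at 10.9, 11.6 and 10.7 against 18.0, 15.7 and 18.2 in day 9 cells (0.60, SE 0.16, adjusted p = 0.0224). In NSCs it was at 60.2, 29.7 and 36.1 FPKM in WT and 35.9, 30.9 and 29.1 in KO cells and overlapped. The day 7 call was lost without WT replicate 2 or 3 or KO replicate 3 (adjusted p up to 0.0852), and the day 9 call without any WT library or KO replicate 1 or 3 (up to 0.0981).

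C630004H02Rik, its neighbour on the map, was at 3.81, 2.74 and 3.03 FPKM in WT and 5.02, 4.52 and 5.33 in KO day 7 cells (log2 fold change 0.51, SE 0.13, adjusted p = 0.0265 in limma). In mESCs the order was opposite, at 1.77, 1.08 and 1.19 in WT against 0.783, 0.745 and 0.543 in KO cells, without overlap (adjusted p = 0.166 in limma). The day 7 call was lost without WT replicate 2 or 3 or KO replicate 1 or 3 (adjusted p up to 0.170).

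Prr11, a gene linked to the cell cycle, was lower in KO cells from day 7 on and was picked out after its values were seen. It was at 12.8, 12.2 and 12.1 FPKM in WT and 9.78, 9.81 and 8.98 in KO day 7 cells (log2 fold change -0.35, SE 0.09, adjusted p = 0.0255 in limma). In day 9 cells it was at 18.7, 19.06 and 19.0 against 14.3, 14.3 and 13.9 FPKM (-0.39, SE 0.09, adjusted p = 0.0065 in limma). In NSCs it was at 18.7, 19.8 and 23.5 against 15.2, 15.2 and 14.1, and in mESCs at 9.48, 10.3 and 9.31 against 9.54, 10.4 and 9.75. The groups overlapped in mESCs only. The day 7 call was lost without any 1 of the 6 libraries (adjusted p up to 0.144), and the day 9 call held in all 6 such fits (adjusted p up to 0.0342).

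In day 9 cells 6 members passed as higher and 5 as lower, against 2.58% and 4.11% of all tested genes. At an unadjusted p under 0.05 there were 53 members (16.1%), against 17.3% of all tested genes. With every library scaled to the same FPKM sum the split was 2 higher and 14 lower. Arl4d, a small GTPase of the ARF family, was at 32.8, 42.8 and 44.3 FPKM in WT and 7.30, 9.82 and 9.06 in KO cells (log2 fold change -2.07, SE 0.24, adjusted p = 3.67e-06 in limma). It was at most 5.53 FPKM in mESCs and day 7 cells of either genotype and at most 1.82 in NSCs, so its rise at day 9 was seen mainly in WT cells.

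C1ql1 was at 43.8, 66.4 and 57.8 FPKM in WT and 8.77, 14.8 and 10.8 in KO day 9 cells (log2 fold change -2.20, SE 0.48, adjusted p = 0.00624 in limma), with no overlap. In day 7 cells the KO libraries were above the WT libraries, at 7.46, 9.36 and 11.5 against 5.88, 4.27 and 7.38 FPKM (adjusted p = 0.663 in limma). Gm11627 was at 22.0, 20.7 and 15.0 FPKM in WT and 10.6, 8.51 and 6.55 in KO day 9 cells (log2 fold change -1.09, SE 0.19, adjusted p = 0.000631 in limma) and at 0 in all NSC libraries. Arl4d, C1ql1 and Gm11627 passed with every library of the comparison left out in turn. Btbd17 was at 31.2, 33.8 and 29.8 FPKM in WT and 11.9, 24.3 and 19.5 in KO day 9 cells (log2 fold change -0.79, SE 0.24, adjusted p = 0.0459 in limma), and its call was lost without any WT library or KO replicate 1 or 3 (adjusted p up to 0.330). In day 9 cells neuron markers summed to 452 to 492 FPKM in WT and 243 to 339 in KO libraries. In mESCs they summed to 151 to 216 in WT and 145 to 188 in KO libraries. Stmn2 alone was at 118 to 156 FPKM in WT mESCs and 108 to 117 in WT day 9 cells, so it did not mark neurons alone. In day 7 cells Tubb3 was higher in KO, at 70.0 to 87.6 FPKM against 41.1 to 55.0 in WT. Whether the day 9 sums moved with these genes for a shared reason was not tested.

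Among the members that rose in KO day 9 cells, Fam117a was at 7.94, 10.8 and 8.95 FPKM in WT and 21.0, 13.6 and 20.9 in KO cells (log2 fold change 0.92, SE 0.21, adjusted p = 0.00834 in limma), and its call was lost without KO replicate 1 or 3 (adjusted p up to 0.0605). Etv4, an ETS transcription factor downstream of FGF signalling, was at 0.723, 1.48 and 0.837 FPKM in WT and 3.36, 2.22 and 2.19 in KO day 9 cells (log2 fold change 0.84, SE 0.25, adjusted p = 0.0458 in limma). In day 7 cells the order of Etv4 was opposite, at 5.01, 7.22 and 6.91 in WT against 3.18, 3.60 and 3.21 in KO cells (adjusted p = 0.110 in limma). The day 9 call of Etv4 was lost without WT replicate 1 or 3 or any KO library (adjusted p up to 0.238). The others were Rnft1, Hap1 and Tex19.1, at log2 fold changes of 0.37, 0.43 and 0.59, each of which lost its call without at least 1 library.

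Against the effect in mESCs, the KO effect differed in day 7 cells for 3 members, 2 higher and 1 lower, against 0.661% and 1.02% of all tested genes. In day 9 cells it differed for 5 members, 3 higher and 2 lower, against 1.32% and 1.35% of all tested genes. C630004H02Rik was among them at both days, with differences of 0.98 (SE 0.19, adjusted p = 0.0060 in limma) and 0.71 (SE 0.19, adjusted p = 0.0411). Its day 9 call was lost in 10 of 12 limma fits that left out 1 library (adjusted p up to 0.136), all but those without WT mESC replicate 2 or KO day 9 replicate 3. It was also lost with equal FPKM sums (adjusted p = 0.170) and with the groups compared alone (adjusted p = 0.106). The day 7 call was lost only when the groups compared were fitted alone (adjusted p = 0.0528). The difference for Arl4d in day 9 cells was -1.84 (SE 0.33, adjusted p = 0.00218 in limma), and it did not pass with a pseudocount of 0.1 (adjusted p = 0.0864).

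Over mESCs, day 7 and day 9 cells, 313 members (95.1%) passed in no comparison of KO with WT, 14 (4.26%) in 1 and 2 (0.608%), Prr11 and Cdr2l, in more. Over all tested genes these shares were 91.0%, 7.35% and 1.69%. Hap1, the huntingtin-associated protein of neurons, named after its values were seen, passed as higher in KO day 9 cells (23.0, 21.7 and 22.7 FPKM against 18.1, 15.2 and 16.0 in WT, adjusted p = 0.0334 in limma). In NSCs it was lower in KO cells, at 19.8, 17.0 and 16.8 against 20.2, 28.6 and 29.2.

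From mESCs to NSCs members changed in both directions. These comparisons use the NSC libraries that set the interval, so the counts and medians over the members, and the gap between the lines, are descriptions. In WT cells 157 members were past the threshold as higher in NSCs and 96 as lower, against 36.9% and 38.3% of tested genes. In KO cells 118 were past it as higher and 141 as lower, against 37.7% and 38.2%. The WT median over the members was 0.27 and the KO median -0.03, against -0.06 and -0.07 on the other autosomes. With every library scaled to the same FPKM sum the median of all tested genes rose by 0.37 in WT and 0.43 in KO cells, and the splits became 211 against 59 and 179 against 86. Relative to the other tested genes the member median was 0.30 in WT and -0.03 in KO cells, and 0.35 and 0.01 with that scaling.

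Thra, the thyroid hormone receptor alpha gene, went from 3.66, 1.20 and 1.56 FPKM in WT mESCs to 81.4, 121 and 107 in WT NSCs and from 3.28, 2.92 and 1.84 to 75.7, 94.7 and 69.7 in the KO line. Btbd17 went from at most 0.210 FPKM in mESCs of either line to at least 17.2 in NSCs. In the other direction, Calcoco2, an autophagy receptor, went from 115, 208 and 237 FPKM in WT mESCs and 109, 163 and 219 in KO mESCs to at most 0.297 in NSCs. These stage differences were many times the difference between genotypes within NSCs, and they had the same sign in both lines.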

How the data were processed

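RNA from 24 libraries was analysed, WT and KO JB4/EI7HZ2 cells at 4 stages with 3 libraries each. Per the study's methods, the authors made stranded mRNA libraries, trimmed reads with Trim Galore 0.6.6, aligned them with TopHat2 2.1.1 to mm9, removed rRNA and X-linked reads, and computed the deposited FPKM values with Cuffdiff of Cufflinks. FPKM values keep no read counts, so no counting interval is given. Another 12 FPKM columns in the table were not used.

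Values were taken as log2(FPKM + 1) and fitted with limma 3.58.1 (R 4.3.3) with 8 group means and a robust, trended variance, on 12105 genes with a mean of at least 1 FPKM outside X and Y. P-values were adjusted over all of these (Benjamini-Hochberg), and a call was an adjusted p under 0.05. With 3 against 3 libraries an exact permutation test cannot go below 0.1. The members and lists were chosen with earlier results of these data known.

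Named genes were the called members that rose most and fell most, up to 3 each way, in each comparison of KO with WT, the 2 members of each role list with the largest change in NSCs, the 2 largest rises and falls between NSCs and mESCs, the first and last members, the genes next to the FPKM threshold, and Smchd1. Others are said to be chosen after their values were seen, and 1 member is not reported here. Replicate numbers were taken to pair WT and KO libraries where every correlation of their deviations from the group means was over 0.1. That held in mESCs (0.289, 0.435 and 0.141) and NSCs (0.335, 0.184 and 0.240). The alternatives were a pseudocount of 0.1, no filter, equal FPKM sums, only the groups compared, the replicate block and leaving out each library, and after seeing the data the library medians relative to the KO libraries and the interval genes left out were added.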

Additional observations from a re-analysis of the deposited data

Results flagged for a closer look

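For some members the KO effect differed between a later stage and mESCs, by the test of that difference in limma. C630004H02Rik had differences of 0.98 in day 7 cells and 0.71 in day 9 cells (log2 scale). Its log2 fold changes of KO against WT were -0.46 in mESCs (adjusted p = 0.166 in limma), 0.51 in day 7 cells (adjusted p = 0.0265) and 0.24 in day 9 cells (adjusted p = 0.366), so only the day 7 comparison passed. For Arl4d the difference in day 9 cells was -1.84. Hap1 had a difference of 0.66 in day 9 cells (adjusted p = 0.0411 in limma), with KO mESCs at 20.8, 22.6 and 22.2 FPKM against 26.1, 26.1 and 24.9 in WT. That call was lost in 11 of 12 limma fits that left out 1 library (adjusted p up to 0.132), all but the fit without WT day 9 replicate 1. It was also lost with equal FPKM sums (adjusted p = 0.197) and after adding 0.1 in place of 1 before the log (adjusted p = 0.0623).

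The next genes were named after their values were seen. Timp2, an inhibitor of matrix metalloproteinases whose locus overlaps 1 other entry, was at 2.08, 0.838 and 1.43 FPKM in WT and 0.569, 0.841 and 0.620 in KO mESCs, and at 4.25, 6.40 and 7.38 against 9.55, 8.75 and 9.10 in day 7 cells. Its differences from the mESC effect were 1.08 in day 7 cells (adjusted p = 0.0190 in limma) and 0.96 in day 9 cells (adjusted p = 0.0281 in limma). The day 7 call was lost without KO mESC replicate 1 or 3 (adjusted p up to 0.0520) and when the groups compared were fitted alone (adjusted p = 0.105). The day 9 call was lost in 9 of 12 limma fits that left out 1 library (adjusted p up to 0.0786), all but those without WT mESC replicate 2, KO mESC replicate 2 or WT day 9 replicate 3. It was also lost with equal FPKM sums (adjusted p = 0.0726) and with the groups compared alone (adjusted p = 0.0716). Stat3, the transcription factor that LIF activates, was at 20.02, 21.8 and 18.7 FPKM in WT and 28.9, 27.0 and 26.1 in KO mESCs, and at 7.16, 5.96 and 6.64 against 4.87, 4.57 and 4.60 in day 7 cells. Its groups did not overlap at either stage, in opposite orders, and the difference was -0.84 (adjusted p = 0.0190 in limma). The call was lost without WT mESC replicate 3, KO mESC replicate 1 or KO day 7 replicate 3 (adjusted p up to 0.0581 in limma) and with equal FPKM sums (adjusted p = 0.0835). Snx11, a sorting nexin, had a difference of -0.80 in day 9 cells (adjusted p = 0.0498 in limma). That call was lost in 9 of 12 limma fits that left out 1 library (adjusted p up to 0.174, with differences from -0.97 to -0.61), all but those without WT mESC replicate 2, WT day 9 replicate 1 or KO day 9 replicate 3. It was also lost after adding 0.1 before the log (adjusted p = 0.0721), with equal FPKM sums (adjusted p = 0.0647) and with the groups compared alone (adjusted p = 0.135).

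In NSCs the differences from the mESC effect were -1.12 for G6pc3, -1.05 for Ghdc, -0.81 for Vat1, -0.79 for Eif1, -0.71 for Aspscr1 and -0.47 for Prr11. The NSC comparison chose the interval, so these values are descriptions.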

How the results depend on the processing

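Medians of the members moved little. The NSC median less that of the other tested genes was -0.31, from -0.36 to -0.25 with each library left out, and the median for WT NSCs against WT mESCs ran from 0.22 (without WT mESC replicate 1) to 0.33. Counts of calls depended more on the setting, and the cause was not tested. With only the groups compared, 1 member was called lower in NSCs, 0 in mESCs, 13 higher and 12 lower in day 9 cells, and 0 lower in the difference between NSC and mESC effects. With a pseudocount of 0.1, 4 were lower in mESCs, 1 higher in day 7 cells, 4 higher in the day 7 difference from mESCs and 0 lower in the day 9 difference. With the replicate block, 2 were higher and 107 lower in NSCs, 0 lower in mESCs, 4 higher in day 7 cells, 14 lower in day 9 cells, and 48, 3 and 8 lower in the NSC, day 7 and day 9 differences from mESCs. Replicate numbers did not pair libraries in day 7 and day 9 cells. With equal FPKM sums, 37 were lower in NSCs, 0 in mESCs, 1 higher in day 7 cells, 2 higher and 14 lower in day 9 cells, 0 and 8 lower in the day 7 and NSC differences, 0 higher in the day 9 difference, 59 lower from mESCs to NSCs in WT, and 179 higher and 86 lower in KO cells. That scaling also turned the sign between mESCs and NSCs for Nup85 (0.071) and Ints2 (0.13) in WT and for Vat1 (0.10), Tbcd (0.13) and Hap1 (0.22) in KO cells.

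With each library left out in turn, counts of members called higher and lower ran from 0 to 1 and 0 to 2 in mESCs, 0 to 3 and 1 to 4 in day 7 cells, 0 to 3 and 4 to 7 in day 9 cells, and 0 to 2 and 34 to 109 in NSCs. For the differences from mESCs they ran from 1 to 2 and 0 to 3 in day 7 cells, 0 to 3 and 1 to 6 in day 9 cells, and 0 to 1 and 11 to 53 in NSCs. Of 834 values of named genes with a library left out, 162 lost their call and none changed sign. The sources used here give no read counts, so the depth behind low values such as those of Etv4 or Dusp3 is unknown.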
